A study of Mus musculus with 4 samples.

Results

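Histone acylation writers and erasers were followed here as 35 genes, out of 21631 protein-coding genes on chromosomes 1 to 19 and X, chosen by name from their known enzyme families. They comprised 11 acetyltransferases (with Naa40 counted among them), 6 partners of the Kat8 complexes, 11 zinc-dependent deacetylases and 7 sirtuins. For each gene the accessible regions within 1 kb of either gene end, inside the gene, and within 50 kb of it were counted in every library.

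Open chromatin was mapped by ATAC-seq, a method that uses the transposase Tn5 to cut exposed DNA and to leave sequencing adaptors there. The PA group held 2 libraries, PA 1 and PA 2, from mice described as hypomorphic Pcca-/- (A138T), in which propionyl-CoA carboxylase, the enzyme that clears propionyl-CoA, is impaired. The WT group held 2 libraries, WT 1 and WT 2, from wild-type mice. All were livers of female FVB mice aged 11 weeks on standard chow, processed from 20 mg of frozen tissue by Omni-ATAC. The design text calls the replicates biological, and the labels do not say whether animals were pooled.

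Writers transfer acyl groups from acyl-CoA to lysines of histones and other proteins, erasers remove them, and the sirtuins among the erasers consume NAD. Acetylation of lysine 16 of histone H4 by Kat8 loosens contacts between nucleosomes, and the study's title concerns acylations of that residue under metabolic stress. The liver breaks fatty acids and amino acids down through acyl-CoA, the donor of these groups, and several of the enzymes accept acyl groups longer than acetyl.

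The deposited lists give positions of peaks and no signal per peak, so the main value below is the presence or absence of a call. The lists held 25683 peaks in PA 1, 29765 in PA 2, 26280 in WT 1 and 25941 in WT 2, nearly all of them 400 bp long, and read depth is unknown. A gene without a call was not detected as open at the caller's threshold, which does not show that it was closed. Overlapping peaks were merged over the libraries into 38853 regions. Among the hepatocyte markers reported here, Apob, Ttr, Cps1 and Cebpa had a peak within 1 kb of an end in all 4 libraries, Tat and Hnf4a in 3, Alb in PA 1, and Apoa1 and Foxa2 in no library. None of 6 Kupffer and blood cell markers had one in all 4 libraries, and Adgre1 had one in PA 1 and PA 2 and in neither WT library. Kdr was called in all 4 libraries and the other 2 endothelial markers in none. Of 3 stellate markers Lrat was called in PA 2 alone, of 3 bile duct markers none was called, and of 5 markers of other tissues Ins2 was called in PA 2, WT 1 and WT 2. In such bulk lists, fewer cells of a type and less open chromatin per cell cannot be told apart.

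Promoter windows of 7 members are shown, because they span the range of calls at these genes. They come from RefSeq on GRCm38.p6 and run 250 bases before to 50 after a listed start, written 5′ to 3′ on the strand of the gene. The Kat8 window (chr7:127912764-127913063, plus strand) surrounds the start that was covered in all 4 libraries, and that of Hdac4 (chr1:92180292-92180591, minus strand) carried a peak near the top of every list. Hdac8 (chrX:102505109-102505408, minus strand) was covered in 3 libraries. Kat2a (chr11:100712418-100712717, minus strand), Sirt4 (chr5:115484248-115484547, minus strand), Kat2b (chr17:53566721-53567020, plus strand) and Hdac9 (chr12:34917046-34917345, minus strand) were covered in none. Capitals mark matches, on either strand, to the motif letters searched, of which the GC box, the CCAAT box and the TATA box occur here. In Hdac8 a CCAAT box and its reverse complement overlap.
Kat8: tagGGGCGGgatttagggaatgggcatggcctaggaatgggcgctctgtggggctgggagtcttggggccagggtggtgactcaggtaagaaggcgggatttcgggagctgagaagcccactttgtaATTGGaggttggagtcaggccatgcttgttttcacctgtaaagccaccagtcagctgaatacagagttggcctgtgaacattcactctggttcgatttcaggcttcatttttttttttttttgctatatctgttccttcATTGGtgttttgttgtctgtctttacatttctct
Hdac4: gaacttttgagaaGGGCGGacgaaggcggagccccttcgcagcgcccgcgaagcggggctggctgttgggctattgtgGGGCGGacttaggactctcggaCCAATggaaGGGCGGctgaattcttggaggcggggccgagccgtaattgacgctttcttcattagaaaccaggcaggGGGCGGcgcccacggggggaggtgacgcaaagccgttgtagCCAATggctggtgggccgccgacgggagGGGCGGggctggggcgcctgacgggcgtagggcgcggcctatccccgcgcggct
Hdac8: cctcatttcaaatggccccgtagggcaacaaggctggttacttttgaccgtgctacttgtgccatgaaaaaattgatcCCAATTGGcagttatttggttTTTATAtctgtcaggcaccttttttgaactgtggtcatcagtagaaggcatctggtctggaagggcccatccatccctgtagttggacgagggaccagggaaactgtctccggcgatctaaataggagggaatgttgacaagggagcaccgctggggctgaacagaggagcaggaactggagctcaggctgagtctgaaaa
Kat2a: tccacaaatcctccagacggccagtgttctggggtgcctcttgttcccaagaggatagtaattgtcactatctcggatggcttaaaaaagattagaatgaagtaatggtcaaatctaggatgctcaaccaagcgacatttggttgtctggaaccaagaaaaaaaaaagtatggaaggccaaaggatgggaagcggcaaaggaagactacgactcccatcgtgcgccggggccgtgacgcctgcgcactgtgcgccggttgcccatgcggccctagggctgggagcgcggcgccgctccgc
Sirt4: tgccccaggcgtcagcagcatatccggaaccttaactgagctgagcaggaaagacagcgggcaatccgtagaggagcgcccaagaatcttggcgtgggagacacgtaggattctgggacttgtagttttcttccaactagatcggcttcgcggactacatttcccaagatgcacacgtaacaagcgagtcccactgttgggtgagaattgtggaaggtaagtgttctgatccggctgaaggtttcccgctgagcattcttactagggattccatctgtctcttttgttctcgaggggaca
Kat2b: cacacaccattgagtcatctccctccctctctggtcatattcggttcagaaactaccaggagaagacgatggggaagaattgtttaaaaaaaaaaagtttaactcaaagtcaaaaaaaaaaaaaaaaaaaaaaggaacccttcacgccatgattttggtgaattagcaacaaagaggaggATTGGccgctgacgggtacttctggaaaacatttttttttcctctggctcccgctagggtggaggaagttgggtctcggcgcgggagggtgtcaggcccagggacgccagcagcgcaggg
Hdac9: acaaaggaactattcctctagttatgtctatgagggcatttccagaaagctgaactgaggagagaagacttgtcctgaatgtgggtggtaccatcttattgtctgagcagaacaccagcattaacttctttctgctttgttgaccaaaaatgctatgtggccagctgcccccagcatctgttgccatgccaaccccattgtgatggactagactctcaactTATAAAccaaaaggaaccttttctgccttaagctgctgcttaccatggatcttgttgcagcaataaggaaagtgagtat

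Most of the 35 genes had an accessible end in every library of both genotypes. A peak within 1 kb of an end was called in all 4 libraries for 25 of 35 members (71.4%), where the share over all protein-coding genes was 41.3%. By library the count was 27 in PA 1, 26 in PA 2, 27 in WT 1 and 25 in WT 2, beside 46.3%, 47.0%, 46.2% and 46.4% of all genes in the same order. The mean was 26.5 ± 0.707 members in PA and 26 ± 1.41 in WT (SD, n = 2 each), so the genotypes differed by less than the spread within WT. Only 3 members changed between libraries, Kat2a, Sirt4 and Hdac8, and 7 were called in no library (48.3% of all genes were): Kat5, Kat6b, Kat2b, Msl1, Hdac4, Hdac7 and Hdac9. No test is given, because 2 against 2 libraries can be split in 3 ways and allow no p below 0.333.

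The 2 annotated ends of a gene do not include starts inside it. With every start in the promoter table added, 30 of 35 members (85.7%) were called in all 4 libraries, where 44.5% of all genes were. Kat5, Kat6b, Msl1, Hdac4 and Hdac7 joined through an inner start, and Kat2b and Hdac9 remained without a call at any end or listed start. The count by library became 32 in PA 1, 31 in PA 2, 32 in WT 1 and 30 in WT 2. This addition was made after the data had been seen.

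**Figure D1:**
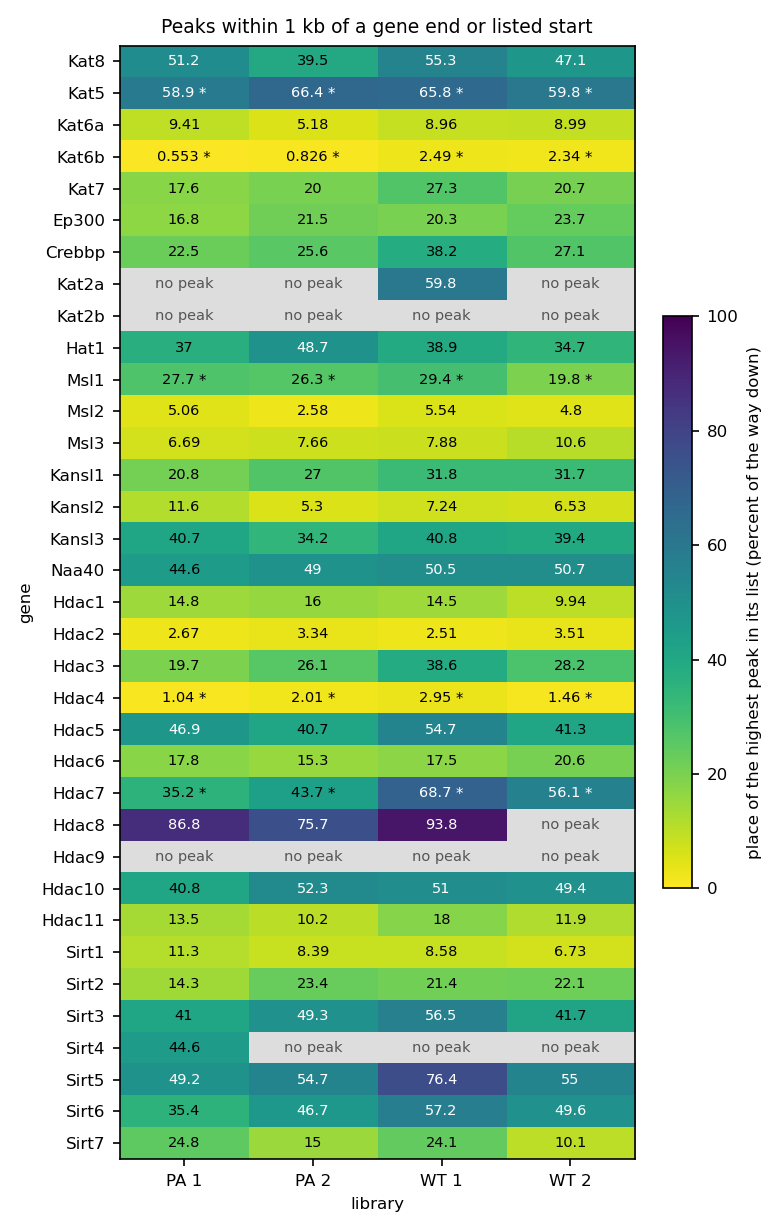
Calls at the 35 genes (rows) in each library (columns). Numbers and colours give how far down its library's list the highest peak within 1 kb of a gene end or listed start stands, in percent (0 is the top), grey marks no such peak, and an asterisk marks a peak near a listed start but near neither end. Kat2b and Hdac9 are empty across all 4 libraries, and Kat2a, Sirt4 and Hdac8 are filled in some.

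Kat8 (chromosome 7, 127912517 to 127925838), the acetyltransferase of lysine 16 of histone H4, was called at its start in all 4 libraries. The merged region, at 127912558 to 127912992, stood 51.2% of the way down the list of PA 1, 39.5% in PA 2, 55.3% in WT 1 and 47.1% in WT 2. The sources used here do not state the order of the lines, so a place in a list describes a peak within its own library and no change between libraries is read from it. Kat8 thus stood near the middle of every list. The peak centre lay inside the gene, 240 and 244 bp past the first start in PA 1 and PA 2 and 244 and 275 bp past it in WT 1 and WT 2. Another listed start lies just beyond that region, and its window, printed above, was covered in every library. The window of the first start was reached in PA 1, PA 2 and WT 1 and not in WT 2. All 5 regions inside Kat8 or within 50 kb of it were called in all 4 libraries, so the calls did not differ between the genotypes anywhere in this interval.

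The MSL complex directs Kat8 to chromatin through the scaffold Msl1, the ubiquitin ligase Msl2 and the chromodomain protein Msl3. Msl1 (chromosome 11, 98793508 to 98807862) had no peak within 1 kb of an end, but its inner start, 2008 bp from the gene's end, carried one in all 4 libraries. That peak stood 27.7% and 26.3% down the lists of PA 1 and PA 2 and 29.4% and 19.8% down those of WT 1 and WT 2. Msl2 (chromosome 9, 101074054 to 101104800) was called at its start in every library and stood high, 5.06% and 2.58% down in PA 1 and PA 2 and 4.8% to 5.54% down in the WT libraries. Msl3 (chromosome X, 168651267 to 168674354) was likewise called at its start in all 4, at 6.69% and 7.66% in PA 1 and PA 2 and at 7.88% and 10.6% in WT 1 and WT 2. All 3 MSL genes therefore had a called start in both genotypes. Msl2 is a neighbour of Pccb, the gene of the partner subunit of Pcca in propionyl-CoA carboxylase. Their ends lie 39114 bp apart, and the region at the Pccb end, at 101034421 to 101035127 and 38927 bp from Msl2, was called in all 4 libraries. An inner region of Msl2 at 101093349 to 101093760 was called in PA 2 and WT 2.

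The NSL complex carries Kat8 to promoters of housekeeping genes, and its scaffold Kansl1 and the subunits Kansl2 and Kansl3 were called at their starts in every library. Kansl1 (chromosome 11, 104333501 to 104469508) had 2 such regions. The one at its outer start stood 44.4% and 47.5% down in PA 1 and PA 2 and 75.3% and 63.9% down in WT 1 and WT 2. The one beside its inner starts, at 104442673 to 104443115, stood 20.8% and 27.0% down in PA 1 and PA 2 and 31.8% and 31.7% down in WT 1 and WT 2. In each library the inner start thus ranked above the outer one. Kansl2 (chromosome 15, 98517658 to 98534770) stood 11.6% and 5.3% down in PA 1 and PA 2 and 7.24% and 6.53% down in WT 1 and WT 2. For Kansl3 (chromosome 1, 36335730 to 36369193) the places were 40.7% and 34.2% in PA 1 and PA 2 and 40.8% and 39.4% in WT 1 and WT 2. Counted with listed starts, all 6 partners were called in all 4 libraries, 5 of them at an annotated end.

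The other MYST enzymes were also open in both genotypes. Kat6a, a histone H3 acetyltransferase, and Kat7, which acetylates histones H3 and H4, were called at an end in all 4 libraries. Kat5, the catalytic subunit of the TIP60 complex, and Kat6b, the paralogue of Kat6a, were called in all 4 at an inner start. The Kat6b peak, at 21500394 to 21500829 on chromosome 14, stood 0.553% and 0.826% down the lists of PA 1 and PA 2 and 2.49% and 2.34% down those of WT 1 and WT 2, which was the highest place of any member in the PA libraries. The Kat5 peak, on chromosome 19 at 5609780 to 5610419, stood much lower, 58.9% and 66.4% down in PA 1 and PA 2 and 65.8% and 59.8% down in WT 1 and WT 2. Counted with listed starts, all 5 MYST genes were called in every library.

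Ep300 and Crebbp, the paired co-activators that also use crotonyl-CoA and propionyl-CoA, were called within 1 kb of an end in all 4 libraries. Neither promoter window was covered, since the peaks lay upstream of the listed start. With distances before the start written as negative, the Ep300 peak was centred at -991 and -993 bp in PA 1 and PA 2 and at -990 bp in both WT libraries. For Crebbp the centre lay at -832 and -757 bp in PA 1 and PA 2 and at -739 and -804 bp in WT 1 and WT 2. The 2 genes thus shared an upstream placement. Hat1, which acetylates newly made histone H4, and Naa40, which acetylates the N-terminus of histones H4 and H2A, were called over their starts in all 4 libraries.

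Kat2a and Kat2b, the catalytic subunits of the SAGA and ATAC complexes known as GCN5 and PCAF, were the acetyltransferases without a called start. Kat2a (chromosome 11, 100704746 to 100712485) had a single near peak, in WT 1, at 100704168 to 100704567 and 59.8% down that list. It lay 179 bp beyond the end that is not the start and overlapped Dhx58, so no library had a peak at the start of Kat2a itself. Kat2b (chromosome 17, 53566774 to 53672721) had none near an end or listed start, and the closest peak was centred 3133 and 3128 bp past its inner start in PA 1 and PA 2 and 3129 and 3132 bp past it in WT 1 and WT 2. Inside Kat2b, however, 9 regions were called, 6 of them in all 4 libraries. That is 8.49 regions per 100 kb of gene, and 99.7% of the 2427 genes of at least 100 kb had fewer. By library the count was 6 in PA 1, 8 in PA 2, 7 in WT 1 and 8 in WT 2. The accessible sites of Kat2b therefore lay within the gene body in both genotypes.

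**Figure D2:**
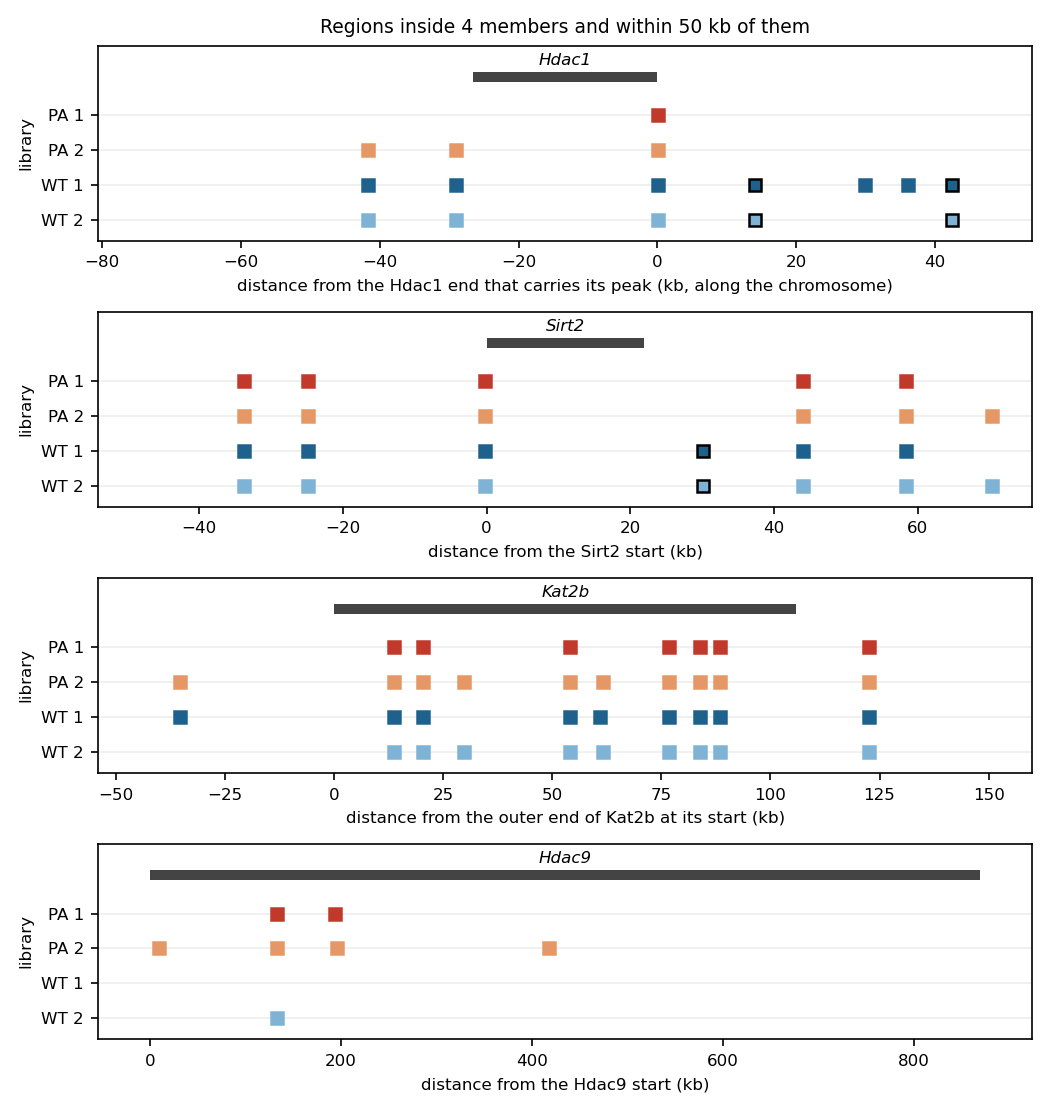
Regions in each library (rows, PA above WT) inside 4 genes (dark bars) and within 50 kb of them, by distance in kb. Black outlines mark regions called in WT 1 and WT 2 but in no PA library, 2 near Hdac1 and 1 near Sirt2. Kat2b holds 9 regions within its body and none at the start, and Hdac9 holds 5, of which WT 1 has none.

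The class I deacetylases Hdac1 and Hdac2, the catalytic pair of the Sin3, NuRD and CoREST complexes, were called at an end in every library, as was Hdac3, the enzyme of the NCoR and SMRT complexes. The Hdac2 peak stood 2.67% and 3.34% down in PA 1 and PA 2 and 2.51% and 3.51% down in WT 1 and WT 2. The end of Hdac3 that carries its peak lies 39 bp from Rell2, so the call belongs to either gene. Hdac8 (chromosome X, 102284638 to 102505381), which acts outside those complexes, was called at its start in PA 1, PA 2 and WT 1 and not in WT 2. Its peaks stood low, 86.8% and 75.7% down in PA 1 and PA 2 and 93.8% down in WT 1. Centres were scattered too, at 117 bp from the start in PA 1, -224 bp in PA 2 and -95 bp in WT 1. WT 2 had a different peak, inside the gene and 26048 bp from its end, 98.2% of the way down its list. The absence in WT 2 thus concerns a site that stood in the lower part of every list that held it.

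Class IIa deacetylases have weak catalytic activity of their own and bind MEF2 factors, and their calls varied from gene to gene. Hdac5 was called at its start in all 4 libraries. Hdac4 and Hdac7 had no peak at an annotated end but were called in all 4 libraries at an inner start, which lies 15361 bp inside Hdac4 and 12735 bp inside Hdac7. The Hdac4 peak, on chromosome 1 at 92180246 to 92180715, stood 1.04% and 2.01% down in PA 1 and PA 2 and 2.95% and 1.46% down in WT 1 and WT 2. For Hdac7 the places were 35.2% and 43.7% in PA 1 and PA 2 and 68.7% and 56.1% in WT 1 and WT 2. Hdac4 held 10 regions in 267 kb, of which 4 were called in all libraries, at a density of 3.75 per 100 kb that exceeded 86.1% of genes of at least 100 kb. Hdac9 (chromosome 12, 34047580 to 34917095) was the opposite case, with 5 regions in 870 kb and 0.575 per 100 kb. None was at a start, and none was called in all libraries, with 2 in PA 1, 4 in PA 2, 0 in WT 1 and 1 in WT 2. These Hdac9 regions stood between 84.2% and 98.9% down their lists. Each PA library held more of them than either WT library, and Hdac9 was the 1 member whose count inside the gene separated the genotypes in that direction (2.86% of members, where 2.47% of all genes did).

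The remaining zinc-dependent deacetylases were called at an end in every library. They are Hdac6, which deacetylates tubulin, Hdac10, a polyamine deacetylase, and Hdac11, which removes fatty acyl groups. Hdac10 had another region at its other end, called in PA 1 and WT 1, where Tubgcp6 lies 95 bp away. Counted with listed starts, 9 of 11 deacetylases of these classes were called in all 4 libraries, as were 9 of 11 acetyltransferases.

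Sirtuins were called at an end in all 4 libraries in 6 of 7 cases, Sirt4 being the exception. Sirt1, the nuclear deacetylase of many transcription factors, stood 11.3% and 8.39% down in PA 1 and PA 2 and 8.58% and 6.73% down in WT 1 and WT 2. Sirt3, the main mitochondrial deacetylase, was called over its inner start in all libraries. Sirt5, which removes succinyl, malonyl and glutaryl groups, was called over its start in all libraries. Sirt5 stood 49.2% and 54.7% down in PA 1 and PA 2 and 76.4% and 55% down in WT 1 and WT 2. Both mitochondrial enzymes thus had called starts in both genotypes. Sirt4 (chromosome 5, 115478006 to 115490264), a mitochondrial ADP-ribosyltransferase and lipoamidase, was called in PA 1 alone, at 115489832 to 115490231 and 44.6% down the list. That peak lay 33 bp inside the annotated end, which is 5967 bp from the listed start, and the window of that start was covered in no library. PA 1 therefore had a call that PA 2 lacked, and the genotypes were not separated.

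Several sirtuins have a called end close to a neighbour, and a peak within 1 kb of such an end cannot be assigned to 1 gene by that distance alone. The called end of Sirt2, the mainly cytosolic member, lies 108 bp from Nfkbib. For Sirt6, a nuclear enzyme of histone H3 lysines, the neighbour is Ankrd24 at 29 bp. For Sirt3 it is Psmd13, 85 bp from the outer end. The Sirt3 peak, however, lay inside the gene over its inner start, 222 bp from that end. The window of its outer start was covered in no library. Sirt7, a nucleolar deacetylase, differed from the rest. Its peak in all 4 libraries lay at the end that is not its start, 165 bp outside the gene and overlapping Pcyt2, while the start itself, 103 bp from Mafg, had no peak in any library. Among the 31 members whose strand was known, 20 were called in all 4 libraries at the end that is the start, and Sirt7 was the 1 member called in all 4 at the other end. The same counts over all genes are not given, so it cannot be said how common a call at the other end is.

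Between the genotypes, no member had an end called in PA 1 and PA 2 but in no WT library, which 0.661% of all genes (143) had. The reverse, WT 1 and WT 2 but no PA library, also held for 0 members and for 0.476% of all genes (103). Counts of 0 are close to these background shares and are not a result about the members. Of all merged regions 1315 (3.38%) were PA-only, meaning called in PA 1 and PA 2 and in neither WT library, and none lay inside a member or within 50 kb of one, while 9.73% of all genes had one. On the WT side, 768 regions (1.98%) were WT-only in the same sense, and 3 of them lay near 2 members, Hdac1 and Sirt2, where 6.58% of all genes had one. Leaving out a library loosens both conditions by construction. PA-only regions near members then numbered 19 without PA 1, 11 without PA 2, and 3 without WT 1 or without WT 2. WT-only regions numbered 6, 11, 5 and 17 without PA 1, PA 2, WT 1 and WT 2 in turn. Shares over all genes or regions with a library left out are not given, so these counts are not read as a result about the members. Counts of regions inside a member or within 50 kb were higher in each PA library than in either WT library for Hdac7, Hdac9 and Hdac11, 3 of 35 members (8.57%, where 6.61% of all genes were). They were lower in each PA library for Hdac1 alone (2.86%, where 3.37% of all genes were). Inside the gene, 0 members were lower in each PA library, where 1.3% of all genes were. These shares are near the background.

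Both WT-only regions near Hdac1 (chromosome 4, 129516104 to 129542646) lay outside the gene and closer to other genes. The region at 129556424 to 129556880 was 13778 bp from Hdac1 and 8080 bp from Lck, and stood 90.9% and 82.0% down the lists of WT 1 and WT 2. The region at 129584883 to 129585449 was 42237 bp from Hdac1 and 6303 bp from Fam167b, at 94.7% and 82.1%. Both thus stood in the lower part of the WT lists. The nearest PA peaks were 13459 and 14939 bp away. Over the whole Hdac1 interval 7 regions were listed, of which PA 1 held 1, PA 2 held 3, WT 1 held 7 and WT 2 held 5. Each PA library had fewer than either WT library here, while the peak at the Hdac1 end was in all 4 lists, at 14.8% and 16.0% in PA 1 and PA 2 and at 14.5% and 9.94% in WT 1 and WT 2. The region near Sirt2, on chromosome 7 at 28796581 to 28797068, lay 7916 bp from Sirt2 and 1897 bp from Rinl. It stood 57.7% and 60.9% down the WT lists, and the nearest PA peak was 13448 bp away. None of the 3 regions had its member as the nearest gene. Lck is a kinase of T cells. Of the 6 Kupffer and blood cell markers, the 5 other than Adgre1 had no call near an end in any library, and the part of such cells in these regions was not tested.

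Inside the members and within 50 kb of them, 181 different regions were found. Of these PA 1 held 125, PA 2 held 143, WT 1 held 136 and WT 2 held 129. The mean was 134 ± 12.7 in PA and 132.5 ± 4.95 in WT (SD, n = 2 each), a difference within the spread of the PA libraries. In all 4 libraries 100 regions (55.2%) were called, against 45.3% of all merged regions. In 1 library 46 (25.4%) were called, close to the 26.8% of all merged regions. Of these 46, PA 1 held 11, PA 2 held 19, WT 1 held 14 and WT 2 held 2. Regions at the members' ends were shared most often, with 25 of 29 in all 4 libraries (86.2%), against 73.6% of the end regions of all genes. Inside the genes the share was 17 of 44 (38.6%, against 34.9% over all genes), and in the flanks, which include ends and bodies of other genes, 58 of 108 (53.7%). No matching share over all genes is given for such flanks. End regions of the members were thus more often in every list than regions inside them.

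Most regions found in 2 libraries paired a PA with a WT library, as they did over the genome. Among the 18 of them, none paired PA 1 with PA 2, where 23.3% of all 2-library regions of the genome did. The pair WT 1 and WT 2 made up 3 of 18 (16.7%, against 13.6% genome-wide). The most frequent pair crossed the genotypes, PA 2 with WT 2, at 8 of 18 (44.4%, against 21.4%). PA 2 had the longest list (29765 peaks), and the part of list length in these pairs was not tested. Of 17 regions found in 3 libraries, 8 lacked PA 1 (47.1%, against 43.1% genome-wide). PA 2, WT 1 and WT 2 were each missing from 3 (17.6%), against 9.82%, 26.1% and 21.0% genome-wide in that order.

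Where a start carried a peak, the peak held a similar place in each library for most members. A start peak here means one within 1 kb of the listed start, a condition that itself limits the distance. For the 25 members with a start peak in all 4 libraries, the median over members of the distance from start to peak centre was -69 bp, negative being upstream. In 17 of them the centre was within 200 bp of the start, 19 lay upstream and 6 downstream. Each member was measured from 1 start, also where several are listed, and the side can depend on that choice. Kat8 was counted as downstream of its first start, while the centre of its merged region stood at -239 bp from another. Matching shares over all genes are not given for these counts or for the spread between libraries. The extremes were Ep300 at -990.5 bp and Kat6b at 825 bp, each a median over libraries. Between libraries the distance varied by a median of 38 bp, with the least spread for Ep300 (3 bp) and the most for Kat5 (240 bp), where PA 1 lay at -125 bp and the other 3 libraries at 31 to 115 bp. In 15 of 25 members the libraries were within 50 bp of each other, so placement was stable in both genotypes for these, and it varied more in the rest. Kat7 was a case of stable displacement, with centres 513 and 527 bp past its start in PA 1 and PA 2 and 520 and 521 bp past it in WT 1 and WT 2.

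**Figure D3:**
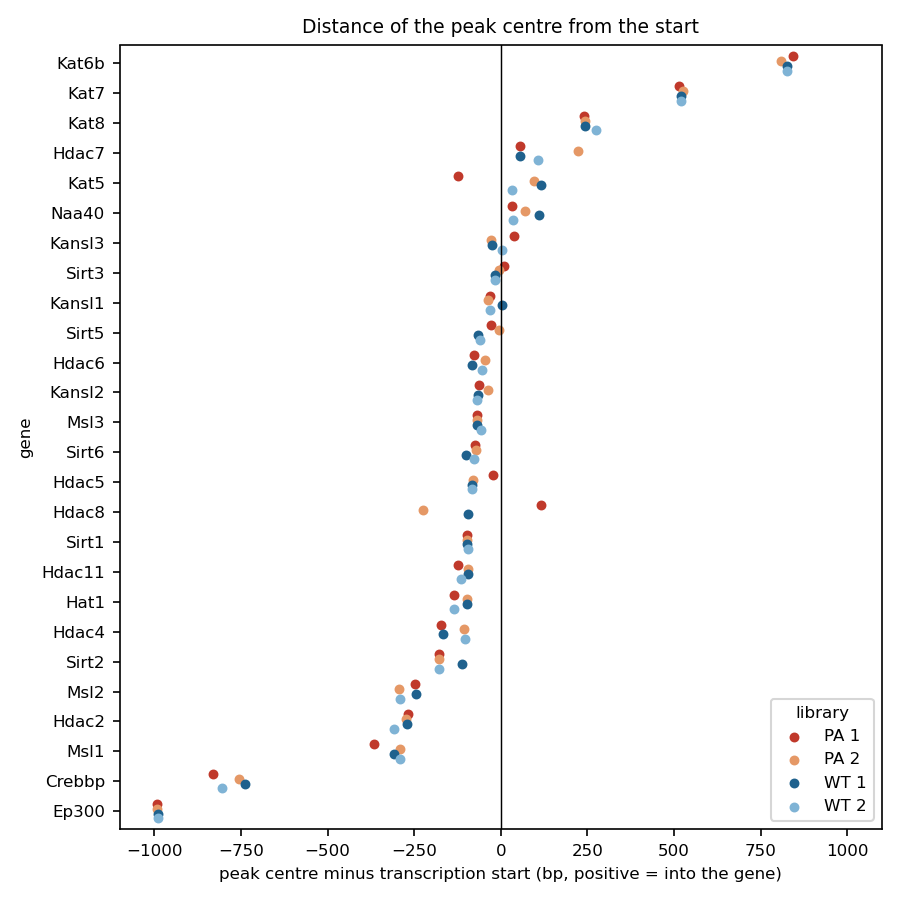
Distance in bp of the peak centre from 1 listed start per gene, 1 row per gene with a start peak, ordered by its median, with 1 point per library. Negative values are upstream. Most genes lie within 200 bp of the start with the 4 points close together, while Ep300 and Crebbp lie far upstream and Kat7 and Kat6b far downstream. Hdac8 has 3 points.

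Over the strict promoter window, 250 bases before to 50 after a start, a peak was present for 22 of the 31 members with a RefSeq entry in PA 1, PA 2 and WT 1 and for 21 in WT 2. In all 4 libraries 21 of 31 (67.7%) were covered, where 39.5% of all genes with an entry were. Kat6a, Hdac1, Hdac3 and Hdac10 have no entry in the table. Complex partners were covered in 6 of 6 cases, deacetylases of the HDAC classes in 6 of 8, sirtuins in 5 of 7 and acetyltransferases in 4 of 10. The low count of the acetyltransferases includes Ep300, Crebbp, Kat6b and Kat7, whose peaks lay beside the window.

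Covered windows had a higher median G + C content than uncovered ones, as over all genes. The share covered was highest from 55% to under 70% G + C in members, whereas over all windows it was highest at 70% or more. The 31 members have 46 listed windows, of which 23 were covered in all 4 libraries, 3 in 3 libraries and 20 in none. Median G + C content was 64.3% in the covered and 54.5% in the uncovered windows, against 62.7% and 51.0% over all protein-coding genes. The observed CpG count over that expected from the base content was 0.824 in the covered and 0.718 in the uncovered windows of members, against 0.817 and 0.283 over all genes. The uncovered windows of the members were thus richer in CpG than uncovered windows in general. Under 55% G + C, 2 of 15 member windows were covered in all 4 libraries (13.3%, against 14.4% of all windows). From 55% to under 70% it was 17 of 20 (85.0%, against 51.1%). At 70% or more it was 4 of 11 (36.4%, against 57.0%), and the uncovered ones included Crebbp at 82.0%, Kat6b at 78.3% and 79.3%, Msl2 at 78.0%, Kansl1 at 75.7% and 75%, and Ep300 at 72.3%. For those 5 genes a peak was called in all 4 libraries within 1 kb of an end or listed start. The Kat6b windows named here overlap almost wholly, as do the Kansl1 windows, and each was counted separately.

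**Figure D4:**
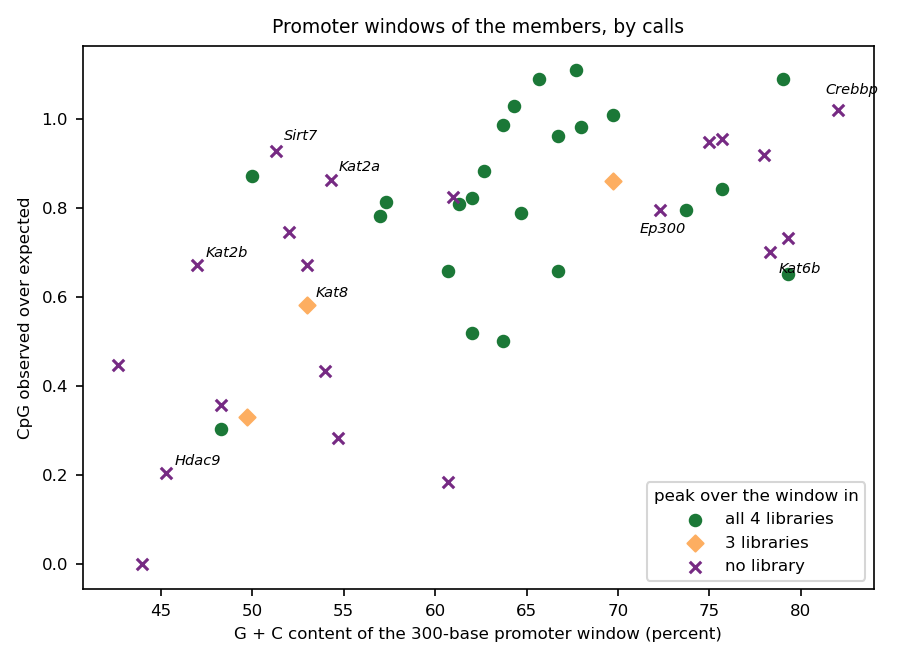
Each point is 1 of the 46 listed promoter windows of the members, placed by G + C content (percent) and by CpG observed over expected, and marked by how many libraries had a peak over it. Covered windows gather between 55% and 70%, and uncovered ones lie on both sides, with Hdac9 at the poor end and Crebbp at 82.0%.

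Motif letters were searched on both strands of these windows as a description. The GC box (GGGCGG) was in 29 of 46 member windows (63.0%), against 46.7% of all 21045 windows. CCAAT was in 39.1%, against 38.5%, and the ETS letters CCGGAAG in 15.2%, against 11.7%. The NRF1 letters GCGCATGCG were in 6.52%, those of Msl2, Sirt6 and Sirt7, against 2.37%. The YY1 letters AAGATGGCG were in 2.17%, the Kansl2 window, against 1.84%, and the E-box CACGTG in 8.7%, against 7.91%. TGACGTCA, the cAMP response element, was in none, against 2.26%. The TATA box (TATAAA) was in 4.35%, the windows of Hdac8 and of the outer start of Hdac9 printed above, against 12.7%. The printed Hdac4 window holds 5 GC boxes and 2 CCAAT boxes, while the Kat2a and Sirt4 windows hold none of the 8 motifs. Matches are letters and not sites of binding.

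Genes that work with the members were called in similar proportions. Of 118 genes on 5 lists, 84 (71.2%) had a peak within 1 kb of an end in all 4 libraries. The GCN5 and PCAF complex subunits reached 16 of 17, while by the same measure Kat2a was called in WT 1 alone and Kat2b in no library. Acyl-lysine readers reached 17 of 22, other subunits of MYST complexes 22 of 30, suppliers of acyl-CoA and NAD 14 of 22, and subunits of HDAC corepressor complexes 18 of 30. Of the 118 genes, 0 had an end called in every library of a genotype and in none of the other, close to the 0.661% (PA) and 0.476% (WT) of all genes. Pcca, the gene altered in PA mice, was in no library called at an end and in all 4 at a listed start, which does not check the labelled genotype, since a peak list does not show the A138T allele.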

How the data were processed

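The authors deposited 4 peak lists, 1 per library, which hold chromosome, start and end of each peak and no score or signal. Bowtie2 2.5.1 and SAMtools 1.17, HOMER 4.10, bedtools 2.31.0, cutadapt 3.5 and R 4.1.2 are named in the submitters' processing notes, with the build GRCm38 (mm10). The sources used here do not give their roles, the peak caller, its threshold, a shift for Tn5 or the depth. A deeper library can pass the threshold at more places.

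Group and replicate came from the titles. Peaks that overlapped or touched were merged, and 1 bp of overlap counted as a call. Gene ends came from RefSeq (GRCm38.p6) and starts, strands and windows from its promoter table, which matched 31 of 35 members. Calls, motifs and figures were made with Python 3.11.15, pandas 2.3.3, numpy 2.4.6 and matplotlib 3.10.9, and the counting was tested on simulated lists. Named in full were Kat8 and its partners, members not called in all 4 libraries and members with a genotype-restricted region. Members and lists were chosen with earlier results of these data known. Alternatives covered windows, overlaps, flanks, list length and left-out libraries.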

Additional observations from a re-analysis of the deposited data

How the results depend on the processing

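Of 97 values recomputed under alternatives, 74 stayed within 1.5 times the reported value or at 0, and 23 moved. The count of members with an end called in all 4 libraries was 24 with a window of 500 bp and 29 with 2 kb. With only the upper 50% of each list, a cut that rests on an order of lines whose meaning is not given, it was 17. In WT 1 it left 17 members with a near-end peak. Of the members called in a library, 92.6% in PA 1, 88.5% in PA 2, 63.0% in WT 1 and 88.0% in WT 2 stood in the upper 50%, and of all genes called 80.7%, 77.4%, 73.1% and 77.6% in the same order. Under that cut 2 members, Naa40 and Kansl1, were called at an end in PA alone, although both were called in all 4 full lists. None was called in WT alone. Over all genes the cut gave 168 ends in PA alone (0.777%) and 44 in WT alone (0.203%). Over all genes, ends in PA alone were thus 3.82 times as many as in WT alone, so the direction of the tilt was not particular to the members. The share in PA alone was larger in the members, 2 of 35 against 0.777% of all genes. Whether the tilt was stronger in the members was not tested, and it would rest on 2 genes. PA-only regions under the cut numbered 4 (near Hat1, Kansl1, Naa40 and Hdac7) and WT-only regions 0, the 3 reported ones standing below the cut in both WT lists. Shares over all regions under the cut are not given. Regions held numbered 91 in PA 2, 69 in WT 1 and 82 in WT 2, and promoter windows were covered for 12 members in WT 1 and for 12 in all libraries. Merging peaks only at 100 bp of overlap gave 1 PA-only region and 4 WT-only regions. A region near Sirt3 called in all 4 libraries was then split into slightly overlapping PA-only and WT-only pieces. The same setting required a peak to be at least 200 bp long, which could remove almost nothing, because nearly all peaks are longer. WT-only regions numbered 1 within 10 kb and 0 where the member had to be the nearest gene. With 1 library left out, ends called in PA alone numbered 0 to 1 (Sirt4 without PA 2, Hdac8 without WT 1) and in WT alone 0 to 1 (Kat2a without WT 2), PA-only regions 3 to 19 and WT-only regions 5 to 17. Shares over all genes or regions with a library left out are not given. The causes were not tested beyond the looser condition that fewer libraries give. No paired analysis was possible because the results come from no test and the lists hold no values to block on. Depth is unknown, so a missing call does not show that a site was closed.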
